A study of Rattus norvegicus with 12 samples.

Results

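In this comparison of NFAT5KO and control UMR-106 cells, 41 genes that averaged 20 or more normalized counts in control cells gave almost no reads in NFAT5KO cells, and no gene met the reverse of this rule. UMR-106 is an osteoblast-like line from a rat osteosarcoma. The groups were NFAT5KO cells in +NaCl medium, NFAT5KO cells in -NaCl medium, control cells in +NaCl medium and control cells in -NaCl medium, with 3 libraries each. The +NaCl medium held 20 mM more NaCl and the -NaCl medium 20 mM less NaCl than the basal medium, for 24 h, and the experimental medium of all groups held 1,25-dihydroxyvitamin D3. NFAT5KO cells were made with CRISPR/Cas9 guides against Nfat5 and grown from 1 cell as a clone, and the control cells were labelled wild type. A difference between the genotypes and a difference between this clone and the parental population therefore cannot be told apart here.

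A gene was called silent in NFAT5KO cells when its normalized count, the read count divided by a size factor of the library, averaged at least 20 over the 6 control libraries and at most 1 over the 6 NFAT5KO libraries, or when it was not listed in the NFAT5KO table. The reverse rule defined genes gained in NFAT5KO cells, and Fxyd2 was left out of both. The rule kept 41 of 12673 genes with a mean of at least 20 in control cells (0.324%), among 20190 genes in either table. It kept 0 of 12520 genes with such a mean in NFAT5KO cells. These genes were selected on their normalized counts in both genotypes, so the genotype difference is described and not tested. The 6 NFAT5KO libraries held 14267946 to 22798804 reads and the 6 control libraries 15030201 to 19127881 reads.

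NFAT5, also called TonEBP, is a transcription factor of the Rel family that is activated when the medium around a cell becomes hypertonic. It binds tonicity-responsive enhancers, which contain the core letters TGGAAA, and switches on genes for the uptake and synthesis of organic osmolytes. The best known of its targets are transporters and enzymes that raise sorbitol, betaine, inositol and taurine inside the cell.

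The labels were checked with the targeted gene. Nfat5 had 1403, 1590.4 and 1626 normalized counts in the NFAT5KO +NaCl libraries, 1036, 792 and 843 in NFAT5KO -NaCl, 4292, 4217 and 4575 in control +NaCl and 2925, 2689 and 2799 in control -NaCl. Its RNA was lower in all 6 NFAT5KO libraries than in any control library and was still present, at 0.318 times the control level at equal depth. The study reported a full loss of NFAT5 in this clone from immunoblots and from qRT-PCR. Its qRT-PCR check of the deletion used a separate primer pair, whose forward primer overlaps the sequence of a guide. The values here count reads per gene, not over that stretch alone, and do not measure the protein. Whether this accounts for the difference was not tested. The osteoblast markers chosen for the cell type check had a mean of at least 20 for 13 of 14 genes in NFAT5KO cells and for 13 of 14 in control cells. None of them was among the 41 silent genes, but levels differed. Phex averaged 48.3 in NFAT5KO cells and 149 in control cells, the only expressed marker on this list under 0.5 times the control level at equal depth. The median log2 ratio of NFAT5KO over control was -0.363 for the expressed osteoblast markers, beside -0.029 for all expressed genes. Of 5 expressed chondrocyte markers, 4 were under 0.5 times the control level, and none was silent.

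In all, the 41 genes took 35 reads in the 6 NFAT5KO libraries and 16011 reads in the 6 control libraries. Of these genes, 30 had 0 reads in every NFAT5KO library and 11 had 1 to 5 reads in total. For 40 of the 41 genes, every control library was above every NFAT5KO library, and the exception was 1 Cdhr4 model with no reads in 2 control -NaCl libraries. The same held for 7.35% of the 12673 genes with a control mean of at least 20, and for the 41 genes it follows largely from how they were chosen. The reads in NFAT5KO cells were spread over the libraries, with 2 to 9 per library. At the depth of the NFAT5KO libraries, the control level of these genes would have given 130 reads for the lowest gene and 1814 for the highest. For the 30 genes at 0, setting NFAT5KO cells at a floor of 3 reads over the group gave a level at least 43.3-fold to 503-fold lower in NFAT5KO cells, with a median bound of 82.5-fold. Intervals and floors cover counting error only. In bulk libraries, fewer cells with a transcript and less of it per cell cannot be told apart.

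**Figure D1:**
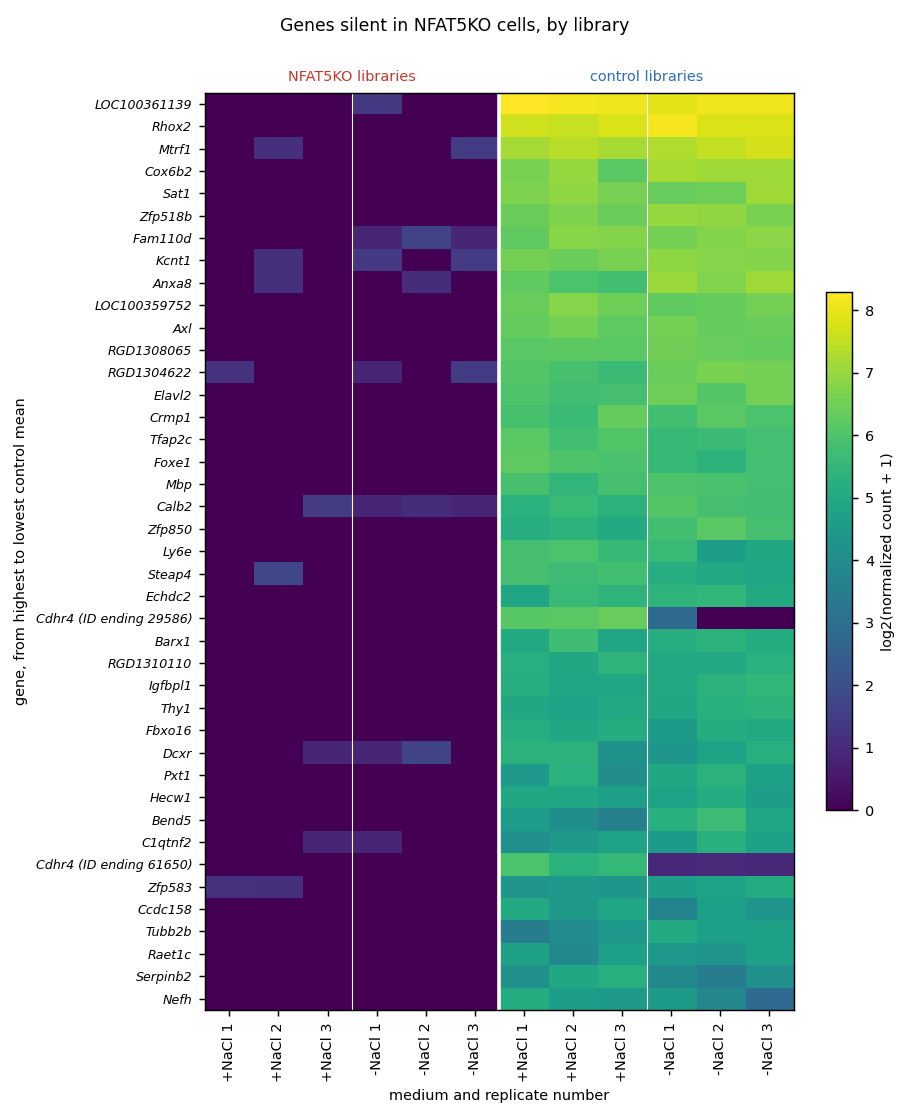
Normalized counts of the 41 genes (rows, from highest to lowest control mean) in the 12 libraries (columns), colored as log2(normalized count + 1). NFAT5KO columns were dark throughout, with 1 to 5 reads in 11 genes, and control columns were light except for the Cdhr4 models in -NaCl medium.

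The control means of the silent genes ran from 20.3 to 279 normalized counts with a median of 44.2, beside a median of 535 over all genes with a mean of at least 20 in control cells. These means were used by the rule. Its limit of 1 in NFAT5KO cells asked for a larger fold difference the higher the control level, so the range of levels follows in part from the rule. All 41 were annotated as protein-coding, as were 95.8% of the 12673 genes with a mean of at least 20 in control cells. Replicate libraries of control cells spread by a median coefficient of variation of 15.2% for these genes and 13.3% for the other 4364 genes of the same level range.

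The imbalance between the directions grew with the size of the difference. Counting genes that averaged 20 or more in the higher genotype, 420 were at least 2-fold lower in NFAT5KO cells and 214 at least 2-fold lower in control cells. These are normalized counts, scaled separately for each genotype, and the 2-fold counts depended on this. At equal depth, 471 of 12867 genes expressed in either genotype were under 0.5 times the control level and 163 were over 2 times. In normalized counts at 8-fold or more, 105 genes were lower in NFAT5KO cells and 7 lower in control cells. At 32-fold or more, 56 genes were lower in NFAT5KO cells and 0 lower in control cells. The libraries behind these counts also differed. Of the 105 genes, 97 had every NFAT5KO library below every control library. So did 7.35% of the 12673 genes that averaged 20 or more in control cells. Both sets of genes were picked by fold difference in the same values, and the 105 include the silent genes. Separation of the 105 therefore follows largely from how they were chosen. Their highest replicate exceeded the lowest by a median of 1.42-fold within a medium of control cells, after adding 1 to each value. None of the 7 genes had every NFAT5KO library above every control library, and their NFAT5KO replicates differed by a median of 45.3-fold.

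**Figure D2:**
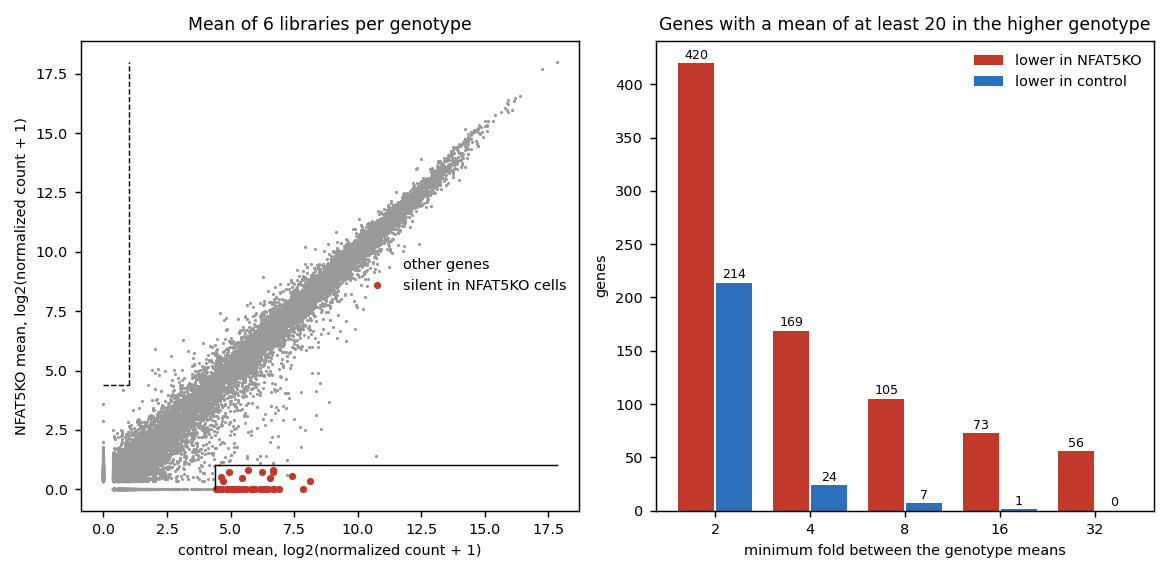
Left, mean of 6 libraries per gene in NFAT5KO cells (vertical) and control cells (horizontal) on log2(normalized count + 1) axes. The solid box holds the 41 silent genes and the dashed box, for gained genes, is empty. Right, number of genes past each fold, with 105 lower in NFAT5KO cells and 7 lower in control cells at 8-fold.

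Of the genes that met the expression limit of 20 in NFAT5KO cells, the model annotated as Hprt1, the purine salvage enzyme, came nearest to a gain by fold. It had 2.55, 2.38, 101, 23.9, 3.36 and 221 normalized counts in the 6 NFAT5KO libraries (+NaCl first) and 5.66, 2.19, 1.88, 1.76, 2.07 and 4.65 in the 6 control libraries. It was high in 3 of the 6 NFAT5KO libraries and near the control level in the other 3. Wdr62, a spindle pole protein, had the lowest control mean among genes that met the expression limit in NFAT5KO cells. Its values were 51.0, 9.53, 15.3, 2.39, 17.9 and 24.8 in NFAT5KO libraries and 2.26, 3.28, 4.70, 0, 3.11 and 0.931 in control libraries, and the groups overlapped. Cav2, a caveolin, had every NFAT5KO library above every control library, with 23.0, 33.4, 33.0, 48.7, 19.04 and 26.5 in NFAT5KO libraries and 5.66, 5.46, 1.88, 2.64, 3.11 and 7.45 in control libraries, and its mean in control cells was above the limit of 1. Among genes with a control mean of at most 1, LOC100910646, described as similar to the ubiquitin ligase RLIM, had the highest mean in NFAT5KO cells, which was under 20. It had 1.28, 1.19, 94.1, 0.798, 4.48 and 0 in NFAT5KO libraries and 0, 1.09, 0.940, 0, 2.07 and 0 in control libraries, and was high in 1 NFAT5KO library. The next was a gene model annotated as Rpl35a, a ribosomal protein, with 0, 1.19, 1.69, 8.77, 0 and 55.5 in NFAT5KO libraries and 0 reads in all control libraries, and most of its reads also came from 1 library. Rnf165, a RING finger gene, followed with 5.10, 8.34, 2.54, 7.98, 7.84 and 5.98 in NFAT5KO libraries and 0 reads in all control libraries. It had reads in each of the 6 NFAT5KO libraries, at a level below the limit of 20.

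The silent genes were sorted by what their products are known to do, an assignment made after the genes were known. The share of each group among all expressed genes was not counted, so the group sizes are a description of the 41 only. Cell surface and secreted proteins made up 10 of the 41, transcription factors and zinc finger proteins 8, genes known from nerve cells 6, mitochondrial and metabolic enzymes 5, other named genes 7 and accession-like symbols 5. Within each of these sets, the NFAT5KO libraries held 2 to 9 reads in all.

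Among the regulators of transcription, Rhox2 had the highest control level per kilobase of gene length, 99.7 normalized counts. Rhox2 belongs to a cluster of reproductive homeobox genes on the X chromosome that is best known from testis and placenta. It had 0 reads in all 6 NFAT5KO libraries, against 206, 191 and 227 normalized counts in control +NaCl and 289, 233 and 224 in control -NaCl libraries, a level at least 503-fold lower in NFAT5KO cells. Its gene model, chrX:123887988-123993542, overlaps the models of Rhox7 and Rhox5. Rhox5 fell just outside the rule, with 3.83, 1.19, 0, 2.39, 2.24 and 0 in NFAT5KO libraries and 90.6, 72.1, 50.7, 75.7, 107 and 101 in control libraries. Rhox7 had no reads in NFAT5KO cells and a mean of 11.8 in control cells. All 3 overlapping models were therefore near or at 0 in NFAT5KO cells, and because the strand setting of the counting was not given, reads cannot be divided firmly among them.

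Tfap2c encodes the AP-2 gamma factor of trophoblast, germ cells and epithelia. It had 0 reads in NFAT5KO libraries, against 71.3, 54.6 and 64.8 in control +NaCl and 45.8, 49.7 and 55.8 in control -NaCl libraries. Foxe1, a forkhead factor needed in the thyroid, had 0 reads in NFAT5KO libraries, against 74.7, 63.4 and 59.2 in control +NaCl and 45.8, 40.4 and 55.8 in control -NaCl libraries. Barx1, a homeobox factor of stomach and facial mesenchyme, also had 0 reads in NFAT5KO cells and averaged 37.0 in control cells. The zinc finger gene Zfp518b had 0 reads in NFAT5KO libraries, against 84.9, 102 and 83.6 in control +NaCl and 125, 119 and 97.7 in control -NaCl libraries. Zfp583 was the only one of these 8 regulators with any NFAT5KO read, 1 in each of 2 +NaCl libraries.

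Of the surface proteins, Axl is a receptor tyrosine kinase for the ligand Gas6. It had 0 reads in NFAT5KO libraries, against 79.3, 94.0 and 75.2 in control +NaCl and 94.2, 79.7 and 82.8 in control -NaCl libraries, at least 184-fold lower in NFAT5KO cells. Kcnt1, a potassium channel gated by intracellular sodium, had 0, 1 and 0 reads in NFAT5KO +NaCl and 2, 0 and 2 in NFAT5KO -NaCl libraries. In control cells it had 92.9, 85.2 and 94.9 normalized counts with +NaCl and 117, 109 and 108 with -NaCl, so the control level was 133-fold that in NFAT5KO cells (exact 95% interval 56.8 to 412). Thy1, a surface glycoprotein of fibroblasts, neurons and early osteoblasts, had 0 reads in NFAT5KO libraries, against 30.6, 27.3 and 31.0 in control +NaCl and 29.9, 37.3 and 40.0 in control -NaCl libraries. Thy1 was the only silent gene on any of the gene lists used, where it stands among 6 fibroblast markers, and the other 5 had a mean of at least 20 in both genotypes. Of 16 classical tonicity response genes, 13 were measured, 10 had a mean of at least 20 in NFAT5KO cells and in control cells alike, and none was silent. Of these 10, 3 were under 0.5 times the control level in NFAT5KO cells at equal depth, Nfat5 itself, the calcium-binding protein gene S100a4 and the chaperone gene Hspa4l, beside 3.35% of the 12826 expressed genes that were not silent.

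The set also held 6 genes best known from nerve or glial cells. Elavl2, a neuronal RNA-binding protein, had 0 reads in NFAT5KO libraries, against 63.4, 52.4 and 56.4 in control +NaCl and 87.1, 66.3 and 93.1 in control -NaCl libraries. Crmp1, which takes part in axon guidance signalling, had 0 reads in NFAT5KO libraries, against 57.8, 49.2 and 78.9 in control +NaCl and 53.7, 70.4 and 60.5 in control -NaCl libraries. The others were Mbp of myelin, the neurofilament gene Nefh, the tubulin gene Tubb2b and the calcium-binding protein gene Calb2. Calb2 kept 5 reads over 4 of the 6 NFAT5KO libraries, and the control level was 66.3-fold that in NFAT5KO cells (exact 95% interval 28.1 to 206). Tubb2b lies beside its close paralog Tubb2a, and reads of such pairs can be divided wrongly, as can those of Raet1c and LOC100361139, which also belong to families of similar copies. Tubb2a remained expressed, with a mean of 68.5 in NFAT5KO cells and 181 in control cells. On the fixed list of 7 neural markers, none was silent and 2 had a mean of at least 20 in both genotypes. Map2 averaged 582 in NFAT5KO cells and 640 in control cells, and Tubb3 averaged 23.9 in NFAT5KO cells and 34.1 in control cells. The others averaged under 20 in both genotypes and so could not be called silent. Nefm averaged 0 in NFAT5KO cells and 7.94 in control cells, Snap25 4.08 and 9.57, Syp 1.89 and 6.52, and Stmn2 0 and 0.293, in the same order. Nefl went the other way, with 6.52 in NFAT5KO cells and 3.67 in control cells.

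Among the metabolic genes, Mtrf1, a release factor of mitochondrial translation, had 0, 1 and 0 reads in NFAT5KO +NaCl and 0, 0 and 2 in NFAT5KO -NaCl libraries. In control cells it had 145, 167 and 147 normalized counts with +NaCl and 156, 182 and 213 with -NaCl. Cox6b2, the testis form of a cytochrome c oxidase subunit, had 0 reads in NFAT5KO libraries, against 95.1, 126 and 70.5 in control +NaCl and 145, 138 and 138 in control -NaCl libraries. The model annotated as Sat1, the polyamine acetyltransferase, had 0 reads in NFAT5KO libraries, against 102, 120.2 and 94.9 in control +NaCl and 81.8, 88.0 and 139 in control -NaCl libraries. Dcxr, a carbonyl reductase, had the smallest ratio of control over NFAT5KO cells among the 11 genes with reads in NFAT5KO cells, 47.6-fold (exact 95% interval 18.3 to 177).

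Fam110d, a gene of little known function, had 0, 0 and 0 reads in NFAT5KO +NaCl and 1, 2 and 1 in NFAT5KO -NaCl libraries. In control cells it had 75.9, 113 and 107 normalized counts with +NaCl and 93.3, 107 and 114 with -NaCl. LOC100361139, described as thymosin-like, had 2 reads in 1 NFAT5KO library against 313, 291 and 272 in control +NaCl and 247, 273 and 279 in control -NaCl libraries. Its control level was 907-fold that in NFAT5KO cells, and with 2 reads the exact 95% interval ran from 251 to 7497. Per kilobase of gene length, control levels ran from 4.89 for the ubiquitin ligase gene Hecw1 to 676 for LOC100361139, with a median of 24.6. The short gene Cox6b2 stood at 252 and Pxt1, a testis-specific peroxisomal gene, at 182 per kilobase. Hecw1 overlaps 2 gene models that were expressed in both genotypes, 1 of them on the other strand.

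The remaining members are given by their control means. Ly6e, a small lipid-anchored surface protein, averaged 44.2 normalized counts in control cells and C1qtnf2, a secreted relative of adiponectin, 25.1. The enoyl-CoA hydratase-like gene Echdc2 averaged 38.9, Fbxo16, a substrate adaptor of a ubiquitin ligase, 31.0 and the coiled-coil gene Ccdc158 22.9. Among the genes known from nerve cells, Mbp averaged 55.5 and Calb2 50.2. Among accession-like symbols, LOC100359752 averaged 88.0, RGD1308065 77.6 and RGD1310110, named Armh4 by RefSeq, 34.5. In NFAT5KO cells these had 0 reads, apart from 2 reads of C1qtnf2 and the 5 of Calb2.

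The members closest to the limits were as follows. Nefh (20.3), Serpinb2 (21.1), Raet1c (21.4) and Tubb2b (21.6) had the lowest control means, all with 0 reads in NFAT5KO cells. Just below the expression limit were Zfp560, Shroom4, Prss30 and Abcc6, with control means of 18.98, 19.02, 19.15 and 19.28. Just above the limit of 1 in NFAT5KO cells were Tm7sf3, Fam217b, Selplg and Nkg7, each with a control mean above 20, and an Nfs1 model that was high in 1 control library. Also near this limit was Rpl39l, a ribosomal protein gene copy with testis-enriched expression. It had 0, 2.38, 4.24, 0.798, 0 and 2.56 normalized counts in NFAT5KO libraries, against 1608, 1697, 1512, 1889.5, 1804 and 1742 in control libraries. Fxyd5, a regulator of the sodium pump, had 0, 2.38, 2.54, 1.60, 0 and 1.71 in NFAT5KO libraries, against 123, 149, 126, 153, 183 and 159 in control libraries.

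The silent genes lay on 17 of 21 chromosomes, with none on chromosomes 2, 6, 9 and 12. Chromosome 5 held 6 of them, the most of any chromosome, and this was 0.743% of its 808 genes with a control mean of at least 20. Chromosome 14 held 4 of 417 (0.959%) and the X chromosome 3 of 418 (0.718%). The median log2 ratio of NFAT5KO over control for genes expressed in both ran between -0.17 and 0.02 across chromosomes. Gene positions are those in the deposited tables, whose rat genome build was not given in the sources used here.

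With starts at most 1 Mb apart, there were 2 clusters, each of 2 gene models. Igfbpl1 (chr5:61395408-61410812, minus strand) and Foxe1 (chr5:61954549-61957357, plus strand) started 559 kb apart. Igfbpl1, a secreted protein related to insulin-like growth factor binding proteins, had 0 reads in NFAT5KO libraries, against 35.1, 28.4 and 28.2 in control +NaCl and 31.7, 39.3 and 43.7 in control -NaCl libraries. The genes between them with a control mean of at least 20 were not silent. Tdrd7 averaged 871 in NFAT5KO cells and 633 in control cells, Tmod1 averaged 76.6 in NFAT5KO cells and 83.2 in control cells, and Ncbp1 averaged 2773 in NFAT5KO cells and 2429 in control cells. Outside the pair, the nearer Mcart1 model, ENSRNOG00000039278, averaged 95.4 in NFAT5KO cells and 78.7 in control cells. The farther Mcart1 model, ENSRNOG00000050061, averaged 76.6 in NFAT5KO cells and 90.1 in control cells. Anp32b averaged 6004 in NFAT5KO cells and 6812 in control cells.

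The second cluster was 1 symbol, Cdhr4, a cadherin-related gene with 2 gene models 4.51 kb apart at chr8:116771982-116773868 and chr8:116776494-116779156, both on the plus strand. Its neighbours were expressed in both genotypes. Uba7, the activating enzyme of ISG15, averaged 94.3 in NFAT5KO cells and 39.3 in control cells. Ip6k1, an inositol phosphate kinase, averaged 1834 in NFAT5KO cells and 1595 in control cells. With starts up to 2 Mb apart there were 4 clusters, adding Zfp583 with Cox6b2 and Zfp518b with Crmp1.

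Within 1 Mb of a silent gene there were 683 other genes with a mean of at least 20 in either genotype. At equal depth, 29 of them (4.25%) were under 0.5 times the control level in NFAT5KO cells, beside 3.35% of all 12826 other genes, and 7 (1.02%) were over 2 times, beside 1.27%. Within 0.5 Mb, 19 of 378 (5.03%) were under 0.5 times, and within 2 Mb, 38 of 1137 (3.34%). The nearest expressed neighbours on either side were 79 distinct genes, of which 7 (8.86%) had ratios under 0.5, Rhox5 among them, 70 had ratios of 0.5 to 2 and 2 (2.53%) had ratios over 2. These shares were not tested, and 33 of the 41 silent genes had both neighbours at 0.5 or more. No silent gene had both nearest expressed neighbours under 0.5. After Rhox5, the lowest ratio within 1 Mb belonged to Slc16a3, a lactate transporter 232 kb from Dcxr, which averaged 16.7 in NFAT5KO cells and 330 in control cells.

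**Figure D3:**
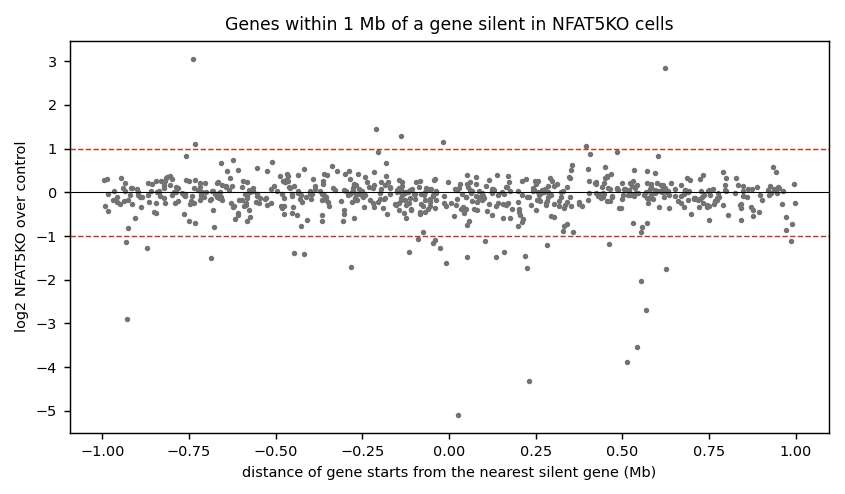
Log2 ratio of NFAT5KO over control (vertical) for the 683 expressed genes within 1 Mb of a silent gene, by distance between gene starts in Mb (horizontal). The ratio was taken after adding 1 to each level. Dashed lines mark 2-fold. Without the added 1, 29 genes were under 0.5 times the control level and 7 over 2 times.

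The response of the 41 genes to NaCl could be tested in control cells, since the rule used the mean over both media. The test asked which of them depended on the NaCl content of the medium. limma's moderated test on log2(normalized count + 1) was fitted over 17108 genes, with Benjamini-Hochberg adjustment over all of them. Of the 41 genes, 7 passed an adjusted p of 0.05 (17.1%), beside 26.0% of all tested genes and 21.3% of the 4406 genes in the same level range. Higher with +NaCl were 3 of the 41 (all genes, 13.3%), and lower were 4 (all genes, 12.7%). A member whose level was under 20 in 1 medium could enter only through the other, which held for 8 of the 41 genes. These were both Cdhr4 models, Bend5, Serpinb2, Nefh, Tubb2b, Zfp583 and Ccdc158. Of the 33 genes with a mean of at least 20 in both media, 4 passed (12.1%), beside 33.9% of all genes and 20.8% of genes in the same level range under the same condition, a split made after the calls were seen. The median log2 fold change was -0.05 for the 41 genes and 0.00 for all tested genes. The libraries of both media did not overlap for 16 of the 41 genes, 39.0%, beside 40.7% of all tested genes and 37.9% of those in the same level range. Without control +NaCl replicate 3, or without control -NaCl replicate 2, 3 of the 41 genes passed.

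**Figure D4:**
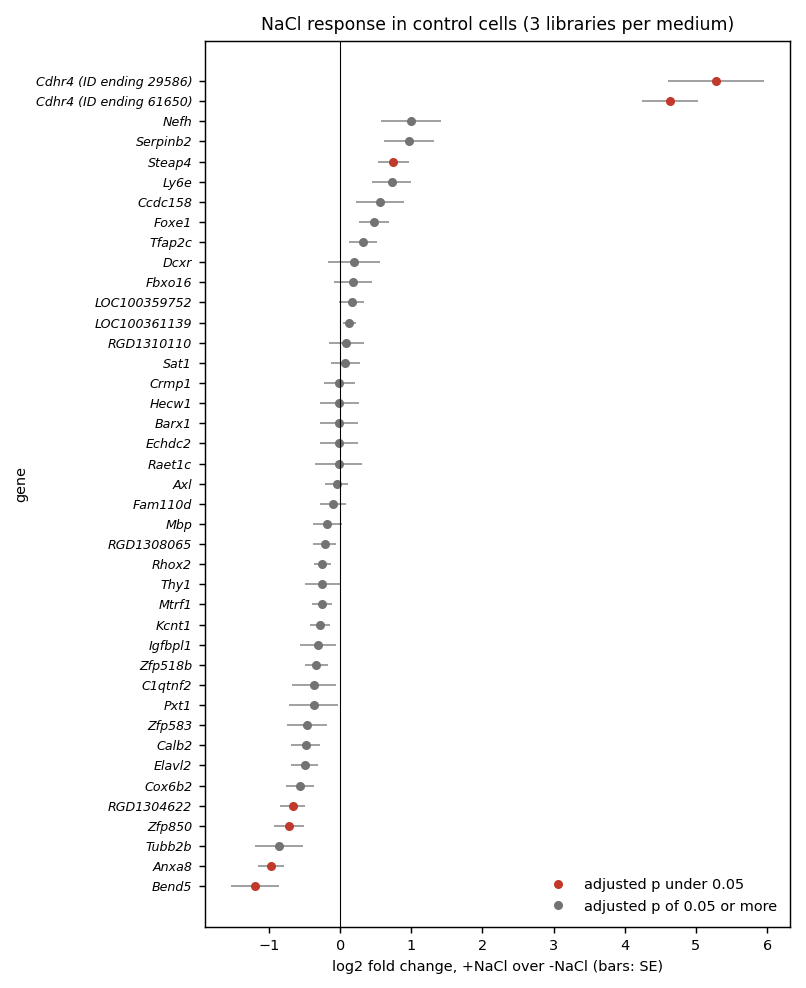
Log2 fold change of +NaCl over -NaCl in control cells for the 41 genes (points) with standard errors (bars). Red points passed an adjusted p of 0.05, and the Cdhr4 models at 4.63 and 5.28 stood apart from all others, which lay between -1.19 and 1.00.

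Both Cdhr4 models passed the test and were higher with +NaCl. They met the limit of 20 through the +NaCl libraries alone, as given above, so they could be members only by being high in that medium. The model ENSRNOG00000029586 had 70.2, 71.0 and 80.8 normalized counts in control +NaCl libraries, against 6.16, 0 and 0 in control -NaCl libraries. The log2 fold change was 5.28 ± 0.67 (SE, n = 3 libraries per medium, limma adjusted p = 0.000218). The model ENSRNOG00000061650 had 61.1, 38.2 and 45.1 in control +NaCl libraries, against 0.880, 1.04 and 0.931 in control -NaCl libraries, where each value stands for 1 read. The log2 fold change was 4.63 ± 0.39 (SE, n = 3 per medium, limma adjusted p = 1.24e-05). Counted as reads at equal depth, the +NaCl level was 33.6-fold (exact 95% interval 16.02 to 84.5) and 50.4-fold (16.9 to 247) the -NaCl level. These intervals pool the reads of a medium and cover counting error only, not the spread among libraries. All -NaCl reads of ENSRNOG00000029586 came from 1 library. In NFAT5KO cells, Cdhr4 had no read in any +NaCl or -NaCl library, and control cells had 7 and 3 reads of these models over the -NaCl group.

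Steap4, a metalloreductase of iron and copper uptake, was the only other silent gene called higher with +NaCl. It had 56.6, 50.3 and 54.5 in control +NaCl libraries, against 35.2, 31.1 and 28.9 in control -NaCl libraries, a log2 fold change of 0.75 ± 0.22 (SE, n = 3 per medium, limma adjusted p = 0.0266). NFAT5KO cells held 2 Steap4 reads, both in 1 +NaCl library. Serpinb2, an inhibitor of plasminogen activators, had 18.1, 30.6 and 36.6 in control +NaCl and 14.1, 10.4 and 16.8 in control -NaCl libraries and did not pass (log2 fold change 0.97, limma adjusted p = 0.0693). Nefh (log2 fold change 1.00, limma adjusted p = 0.113) and Ly6e (0.72, limma adjusted p = 0.0793) did not pass either. Their fold changes were near or above that of Steap4, and a difference from Steap4 was not tested. Each of these 3 genes passed under 1 of the 16 alternative settings. Serpinb2 and Nefh met the expression limit through the +NaCl libraries alone, so they could be members only by being high in that medium. Their positive fold changes therefore follow in part from the rule, whereas Steap4 and Ly6e met the limit in both media.

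The genes that fell with +NaCl were Bend5, Anxa8, Zfp850 and RGD1304622. Bend5, a transcriptional repressor with a BEN domain, had 22.6, 16.4 and 11.3 in control +NaCl libraries, against 37.8, 50.7 and 28.9 in control -NaCl libraries, a log2 fold change of -1.19 ± 0.34 (SE, n = 3 per medium, limma adjusted p = 0.0238). It met the limit of 20 through the -NaCl libraries alone, so it could be a member only by being high in that medium. Anxa8, a calcium-dependent membrane-binding annexin, had 75.9, 60.1 and 54.5 in control +NaCl libraries, against 130.3, 106 and 138 in control -NaCl libraries, a log2 fold change of -0.97 ± 0.18 (SE, n = 3 per medium, limma adjusted p = 0.00269). For all 4 genes, every +NaCl library was below every -NaCl library, which follows largely from their choice by the test on these libraries. The media did not overlap, in either direction, for 40.7% of all tested genes and 37.9% of those in the same level range. Zfp850, a zinc finger gene, had 35.1, 40.4 and 32.9 in control +NaCl libraries, against 53.7, 70.4 and 56.8 in control -NaCl libraries, with a log2 fold change of -0.72 ± 0.22 (SE, n = 3 per medium, limma adjusted p = 0.0317). RGD1304622, named Kiaa1614 by RefSeq, had 65.7, 57.9 and 49.8 in control +NaCl libraries, against 84.5, 98.3 and 93.1 in control -NaCl libraries, with a log2 fold change of -0.67 ± 0.18 (SE, n = 3 per medium, limma adjusted p = 0.0179). Nearest to the threshold among the genes that did not pass was Cox6b2, at 95.1, 126 and 70.5 in control +NaCl and 145, 138 and 138 in control -NaCl libraries (log2 fold change -0.56, limma adjusted p = 0.0528). Its media did not overlap, and it passed under 4 of the 16 alternative settings. Elavl2 (log2 fold change -0.50, limma adjusted p = 0.0838) and Tubb2b (-0.86, limma adjusted p = 0.0851) passed under none of them. Like Bend5, Tubb2b met the limit of 20 through the -NaCl libraries alone. Both Cdhr4 models and Anxa8 passed under each of the 16 alternative settings, whereas Steap4, Bend5, Zfp850 and RGD1304622 lost the call under 6, 5, 5 and 2 of them.

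**Figure D5:**
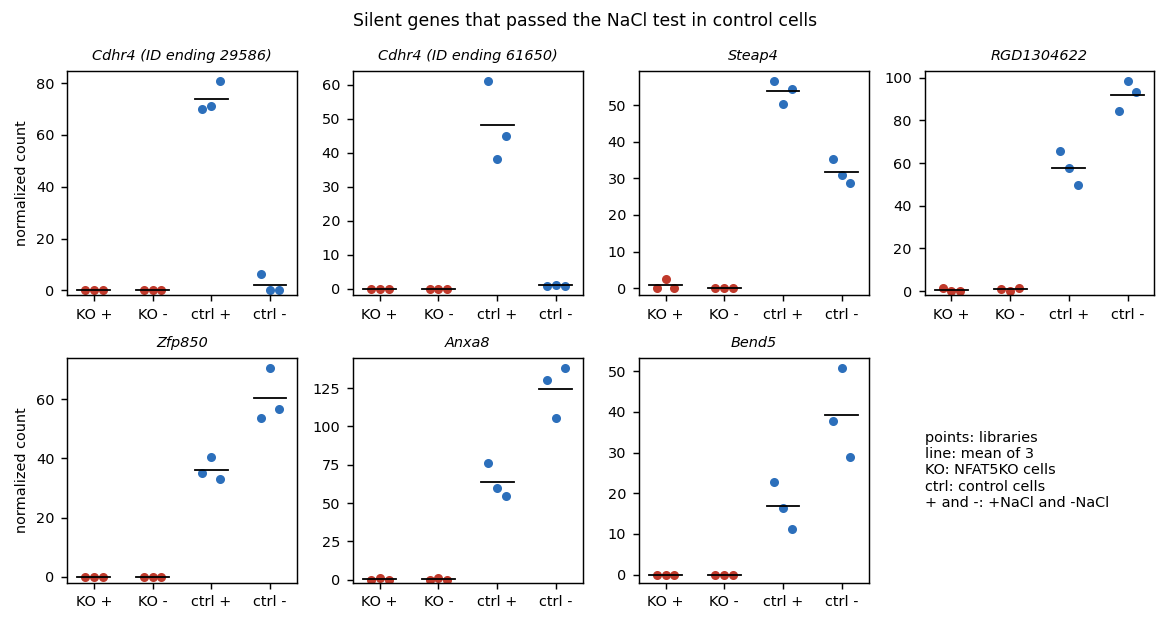
Normalized counts (vertical, linear) of the 7 gene models that passed the NaCl test in control cells, by group of 3 libraries, with points for libraries and lines for means. NFAT5KO points sat at or near 0 in both media. Control +NaCl and -NaCl points did not overlap in any panel, which follows largely from the choice of genes by this test.

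The promoters of 5 of these genes are shown because they passed the NaCl test and were matched. RefSeq promoters, from 250 bases before to 50 after the gene start in GRCr8, were matched by symbol or older symbol for 29 of the 41 gene models (70.7%) as 28 distinct sequences. This is under 80%, so a comparison of base composition or motif content over the set is void and was not used. In capitals are TGGAAA or its reverse complement in Cdhr4 (chr8:117560956-117561255, plus strand) and Anxa8 (chr16:9403137-9403436, plus strand), and CG pairs in Steap4 (chr4:27054720-27055019, minus strand), Bend5 (chr5:131518964-131519263, plus strand) and RGD1304622 (chr13:69971508-69971807, minus strand).
Cdhr4: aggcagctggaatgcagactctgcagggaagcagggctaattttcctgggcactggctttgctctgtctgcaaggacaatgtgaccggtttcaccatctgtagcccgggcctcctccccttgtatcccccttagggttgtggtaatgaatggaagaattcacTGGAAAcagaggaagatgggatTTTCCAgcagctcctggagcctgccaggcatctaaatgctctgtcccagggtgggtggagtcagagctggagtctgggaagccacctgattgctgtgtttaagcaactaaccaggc
Anxa8: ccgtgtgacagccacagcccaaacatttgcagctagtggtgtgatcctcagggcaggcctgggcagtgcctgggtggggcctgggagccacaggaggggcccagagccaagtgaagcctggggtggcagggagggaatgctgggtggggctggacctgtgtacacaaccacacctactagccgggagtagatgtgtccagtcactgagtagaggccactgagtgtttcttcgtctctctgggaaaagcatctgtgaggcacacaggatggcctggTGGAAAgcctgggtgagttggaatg
Steap4: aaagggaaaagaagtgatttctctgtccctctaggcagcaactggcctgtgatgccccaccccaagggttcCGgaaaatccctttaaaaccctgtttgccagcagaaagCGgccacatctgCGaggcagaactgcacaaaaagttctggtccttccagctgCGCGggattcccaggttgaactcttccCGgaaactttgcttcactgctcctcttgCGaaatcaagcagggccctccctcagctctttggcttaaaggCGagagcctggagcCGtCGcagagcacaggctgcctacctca
Bend5: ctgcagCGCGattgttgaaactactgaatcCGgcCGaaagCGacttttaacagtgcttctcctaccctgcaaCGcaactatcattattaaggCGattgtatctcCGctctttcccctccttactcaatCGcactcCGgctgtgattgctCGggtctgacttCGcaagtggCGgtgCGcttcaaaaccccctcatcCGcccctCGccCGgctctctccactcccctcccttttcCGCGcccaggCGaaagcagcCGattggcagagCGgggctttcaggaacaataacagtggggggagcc
RGD1304622: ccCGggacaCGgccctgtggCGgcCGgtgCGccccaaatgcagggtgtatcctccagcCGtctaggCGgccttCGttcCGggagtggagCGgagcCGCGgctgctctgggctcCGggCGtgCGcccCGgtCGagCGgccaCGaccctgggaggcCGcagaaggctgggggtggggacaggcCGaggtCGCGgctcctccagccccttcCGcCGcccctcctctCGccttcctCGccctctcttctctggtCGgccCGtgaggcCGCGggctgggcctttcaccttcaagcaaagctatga

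The Cdhr4 window held TGGAAA once on each strand, starting 88 bases before the gene start on the plus strand and 66 bases before it on the minus strand. The minus strand match lay within a match to the tonicity-responsive enhancer consensus. Of promoters of all other genes with a mean of at least 20 in control cells, 15.7% held TGGAAA on either strand and 3.22% held the consensus, which contains TGGAAA. Anxa8 held TGGAAA once, after the start, and Steap4, Bend5 and RGD1304622 did not hold it in these windows. The RGD1304622 window held 31 CG pairs, an observed over expected ratio of 0.791, the Bend5 window 22 (0.938), the Steap4 window 10 (0.447), the Anxa8 window 3 (0.118) and the Cdhr4 window 2 (0.0924). A match to these letters is a description and not a binding site.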

How the data were processed

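The study sequenced poly(A) RNA from control and NFAT5KO UMR-106 cells in -NaCl and +NaCl medium, with 3 biological replicates per group, as Illumina paired-end reads. The deposited values used here are normalized counts (signal per gene), which the authors made by dividing the read count of each gene by 1 size factor per library, separately for each genotype. The aligner and counter are not given in the sources used here, and the build named in the submitters' processing notes, mm10, is a mouse build, whereas gene identifiers and positions are rat. The name of each table disagreed with its column labels, and the column labels were followed. Columns of the authors' fold changes and p-values, and 24 columns of per-library counts and FPKM headed WT or KO Clone II, whose names match no sample label, were not used.

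Dividing by the smallest value of a library recovered whole reads for 100% of values within 0.1 read. Genotypes were compared as normalized counts for membership and as reads scaled to equal depth for ratios, without a test. A gene with 0 reads was set at a floor of 3 reads over the group, and ratios with reads have exact (Clopper-Pearson) 95% intervals. NaCl responses were fitted with limma 3.58.1 in R 4.3.3 on log2(normalized count + 1) for genes with a mean of at least 1, within control cells, with an adjusted p threshold of 0.05. edgeR 4.0.16 and DESeq2 1.42.0 on recovered reads, other scalings, filters and pseudocounts, a replicate block and leaving out each library were alternatives. Scripts were tested on simulated data of 17125 genes. Of 69 genes changed by 1 on the log2 scale, limma called 88.4%, and of 74 genes changed by 0.5 it called 33.8%. A gene that did not pass may therefore still respond to NaCl. The simulation gave every gene the same spread setting, so these shares need not hold for the data. With 3 against 3 libraries, the exact permutation p of 1 gene could not be under 0.1.

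The genes named are the 12 highest with a proper symbol, members of clusters, those that passed the NaCl test, those on a gene list and those next to a threshold. The other members are named once, outside this rule and after their values were seen, to account for all 41. The members and lists were chosen with earlier results of these data known.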

Additional observations from a re-analysis of the deposited data

How the results depend on the processing

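The number of genes silent in NFAT5KO cells depended on the expression limit, with 77 at a minimum mean of 10 and 19 at a minimum mean of 50, and leaving out 1 library gave 40 to 45. It also depended on the silence limit, with 36 at a maximum mean of 0.5, 59 at a maximum mean of 2 and 30 at 0 reads. The -NaCl libraries alone gave 42 silent genes, 33 of them among the 41, and the +NaCl libraries alone gave 46, 38 of them among the 41. The number of gained genes was 2 at a minimum mean of 10, 1 with -NaCl libraries only and 2 with +NaCl libraries only, and leaving out 1 library gave 0 to 1. It was 1 without control -NaCl replicate 2, NFAT5KO +NaCl replicate 1 or 2, or NFAT5KO -NaCl replicate 1 or 3. Clusters numbered 1 at a distance of 0.5 Mb, 4 at 2 Mb and 0 with at least 3 members. Leaving out 1 library of control cells gave 3 to 8 silent genes that passed the NaCl test, 2 to 5 higher and 1 to 4 lower with +NaCl, with 3 called without +NaCl replicate 3 or -NaCl replicate 2 and 8 without -NaCl replicate 1. DESeq2 called 6, edgeR 7 and the fit with a replicate block 8. No direction of a called gene was reversed. The NaCl response of gained genes in NFAT5KO cells was not run, since there were none. Libraries that share a replicate number did not deviate together, with correlations of 0.07, -0.01 and -0.07 in control cells, so the numbers were not treated as pairs. For genes near 20 normalized counts, about 130 reads over the NFAT5KO group would have been expected, and a count of 0 over the group allows a level of up to 3 reads.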
